A study of Homo sapiens with 2 samples.

Results

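The genes described here set the pace of entry into S phase, the phase of the cell cycle in which DNA is copied. They are 7 drivers, the cyclins CCND1, CCND3, CCNE1 and CCNE2 and the kinases CDK2, CDK4 and CDK6, and 3 inhibitors, CDKN1A, CDKN1B and RB1. The 10 genes were listed by name, and every probe set that the platform annotation assigned to 1 of them and to no other gene was taken. That gave 23 of the 41091 probe sets with a single gene, and 10 of 19775 genes. A probe set is a group of short probes that reads a stretch of a transcript.

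The study set MKN28 cells that overexpress Sox2, a DNA-binding regulator known from stem cells and the foregut, beside control MKN28 cells. MKN28 is an established human gastric cancer line and is listed as a misidentified derivative of MKN74. The Sox2 cells had been infected with a Sox2 lentivirus that also confers puromycin resistance, and were selected in 2 µg/mL puromycin for 3 to 5 days. What the control cells received is not stated in the labels, so selection and Sox2 cannot be told apart. Total RNA of each was read on 1 array, and with 1 array per group there is no replicate error and no test between the conditions.

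D-type cyclins bind CDK4 and CDK6 in G1, and this pair begins to phosphorylate RB1, the retinoblastoma protein, which holds E2F transcription factors in check. E2F then raises the E-type cyclins, which bind CDK2 and complete the step. CDKN1A (p21), a target of p53, and CDKN1B (p27) bind and block cyclin-CDK2 complexes. Much of this control acts on protein, by phosphorylation and degradation, which an mRNA array does not read.

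The target gene gave no clear check of the Sox2 label. In the Sox2-labelled array SOX2 itself read 172 against 123 in the control by its brightest probe set, and the log2 differences of its 4 probe sets ran from -0.46 to 0.49. Directions below therefore rest on the labels. Of 5 epithelial markers, 4 reached the median intensity of 34.25 and EPCAM, an epithelial surface protein, did not. All 5 fibroblast markers, 1 of 3 leukocyte markers and all 3 endothelial markers reached it too, so passing this level does not show that a gene is expressed. The summed intensity was 244 against 268 for the epithelial markers, 1173 against 1121 for the fibroblast, 133 against 126 for the leukocyte and 215 against 212 for the endothelial markers, in the order Sox2 and control. Their part in the results below was not tested. The poly-A spike-ins, RNA standards of bacterial origin that go in before labelling, had a median log2 difference of -0.75 over 24 probe sets. Control probe sets for ACTB read 4935 (Sox2) and 3582 (control) at the 5′ end of the transcript, but 103 and 91.1 at the 3′ end. Those for GAPDH read 1202 and 1451 at the 5′ end, but 184 and 195 at the 3′ end. Those for the middle of the transcript read 6564 (Sox2) and 4849 (control) for ACTB, and 1724 and 2219 for GAPDH. The 3′ end was thus the dim one for both genes and in both arrays. The reason was not tested, and neither was the match of values to probe set names. Probe sets of 1 transcript gave very unlike levels here, and the level of 1 probe set is no measure of how much RNA a gene has.

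The stretches below are shown because the factor named in the labels binds DNA, and they are the places in the members' promoter windows that hold the core letters of a SOX motif. RefSeq windows (GRCh38.p14) were found for 7 of the 10 genes, 10 windows in all, and the 250 bases before each start were searched on both strands for ACAATG and ACAAAG. Capitals mark the match, and each stretch is written 5′ to 3′ on the gene's strand, which is the minus strand for both genes.

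CCND3, chr6:42048742-42048771: gagcaccagcccCTTTGTctcctccgcccc
CCND3, chr6:42048689-42048706: gcgcggcgcggaCTTTGT
CDK6, chr7:92834051-92834080: tagcggcgcaacACAATGatatagggataa

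The CCND3 matches begin 71 and 6 bases before the start of their window's transcript and read on the opposite strand. The CDK6 match begins 109 bases before the start. These starts lie 1347 bases (CCND3) and 2614 bases (CDK6) inside the gene from its outermost end. Thus 2 of the 10 windows held a SOX core, against 21.2% of all 35116 windows, a share near the background. The windows of CCNE1, CDK4, CDKN1A, CDKN1B and RB1 did not have these letters, and the RB1 window lies 172699 bases inside the gene. Letters of E2F sites (TTTCCCGC, TTTGGCGC, TTTCGCGC or TTTGCCGC, either strand) were in 0 of the 10 windows and in 2.79% of all windows. A match is a description of the letters and not of binding.

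Of the E-type cyclins, which activate CDK2 late in G1, CCNE2 read higher in the Sox2-labelled array by both probe sets and CCNE1 slightly lower by both of its own. The CCNE2 readings were dim: both were under the median intensity of 34.25 in the control. The brighter CCNE2 probe set (211814_s_at) read 35.7 in the Sox2-labelled array against 10.1 in the control, a ratio of the deposited values of 3.54-fold or 1.82 on the log2 scale. The other (205034_at) read 5.04 and 1.61, a ratio of 3.13-fold or 1.65. With no detection call, these ratios have no known background under them and are given as deposited.

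Genes were counted only if the higher of their 2 readings reached the median intensity, the filter used below. The brighter CCNE2 probe set passed it only through the Sox2-labelled array, where it is high. The other was under the median intensity in both arrays, near the lowest deposited value of 1. In the decile of probe sets at the level of 205034_at, 13.8% differed by at least 2-fold, with a robust SD of 0.63 on the log2 scale. At the level of 211814_s_at, that share was 1.65% and the robust SD 0.37. Over all genes with exactly 2 probe sets and no filter, the brighter one differed by at least 2-fold in 108, CCNE2 included. In 60.2% of these the other lay on the same side, and in 13.9% it was also at least 2-fold apart on that side. Probe sets of 1 gene share the RNA and the array, so that both lay on 1 side says nothing of other cultures.

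CCNE1 read 48.1 in the Sox2-labelled array against 60.4 in the control by its brighter probe set, a log2 difference of -0.33. Its other probe set read 41.3 and 44.9 (-0.12). Both pairs of values are above the median intensity and both lie lower in the Sox2-labelled array, by at most 1.26-fold.

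**Figure D1:**
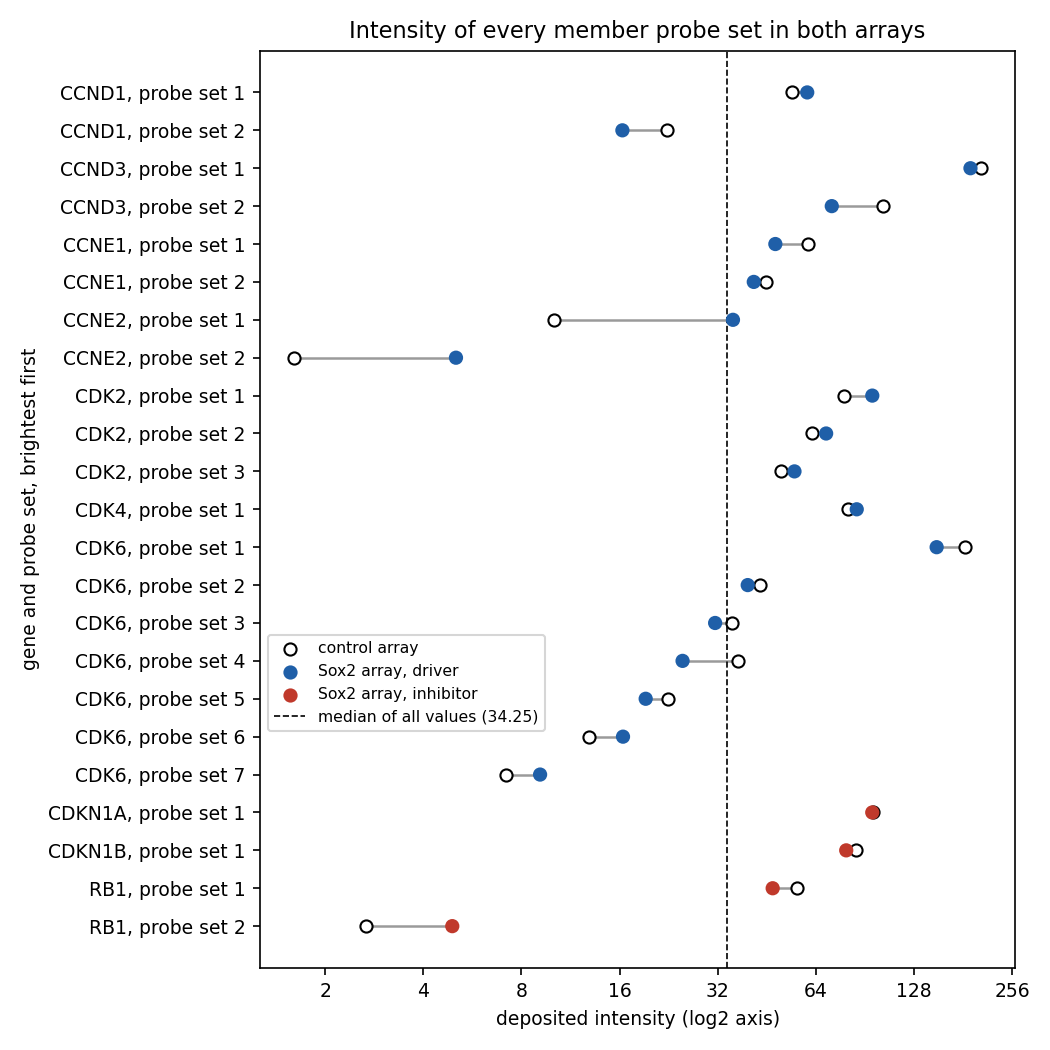
Deposited intensity (log2 axis) of the 23 member probe sets, with an open point for the control array, a filled point for the Sox2-labelled array and a dashed line at the median of all values, 34.25. The widest gaps are those of the 2 CCNE2 probe sets, at 35.7 against 10.1 and 5.04 against 1.61, and the points of CDKN1A overlap at 95.4 and 96.0.

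The D-type cyclins, which couple growth factor signals to the cycle, differed little by their brightest probe sets and more by their others. CCND1 read 60.3 in the Sox2-labelled array against 53.9 in the control by its brighter probe set (208711_s_at), a log2 difference of 0.16. Its other probe set (208712_at), under the median intensity in both arrays, read 16.3 and 22.4 (-0.45). The 2 probe sets thus lay on opposite sides and 0.61 apart, so the arrays give no common direction for CCND1.

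CCND3 lay lower in the Sox2-labelled array by both probe sets. The brighter one (201700_at) read 191 and 205, a log2 difference of -0.11, and the other (1562028_at) read 71.7 and 103 (-0.52, 1.44-fold lower). The size therefore depends on the probe set.

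Of the kinases, CDK2, the partner of the E-type cyclins, read higher in the Sox2-labelled array by all 3 probe sets. They read 95.4 against 77.9, 68.9 against 62.5 and 55.1 against 50.1, log2 differences of 0.29, 0.14 and 0.14. These differences were 0.16 apart at most, and the largest is 1.22-fold. CDK4, a partner of the D-type cyclins, has a single probe set here, which read 85.5 and 80.1 (0.09).

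CDK6, the other D-cyclin kinase, has 7 probe sets, the most among the members. The brightest (207143_at) read 150.3 in the Sox2-labelled array against 184 in the control, a log2 difference of -0.29. The other 3 that passed the median intensity read 39.6 against 43.2, 31.4 against 35.5 and 25.0 against 37.1 (-0.13, -0.17 and -0.57). All 4 were lower in the Sox2-labelled array, but the last 2 passed only through the control, where they are high. Of the 2 that passed in both arrays, the differences were -0.29 and -0.13. Among the 3 dimmer ones, 1 was lower (19.3 against 22.5, -0.22), while the 2 dimmest were higher, at 16.4 against 12.9 and 9.13 against 7.19 (both 0.34). Over the 7 the SD was 0.33 and the median -0.17.

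The inhibitors were nearly level by their brightest probe sets. CDKN1A has a single probe set, which read 95.4 in the Sox2-labelled array against 96.0 in the control, a log2 difference of -0.01. CDKN1B, also with 1, read 79.4 and 85.3 (-0.10). Neither has a second probe set here to set beside it.

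RB1, the pocket protein that restrains E2F, was read in opposite directions. Its brighter probe set (211540_s_at) read 47.2 in the Sox2-labelled array against 55.9 in the control, a log2 difference of -0.24. The other (203132_at) read 4.91 and 2.66 (0.88, 1.85-fold higher), far under the median intensity. The gap of 1.13 between them is the widest of any member.

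**Figure D2:**
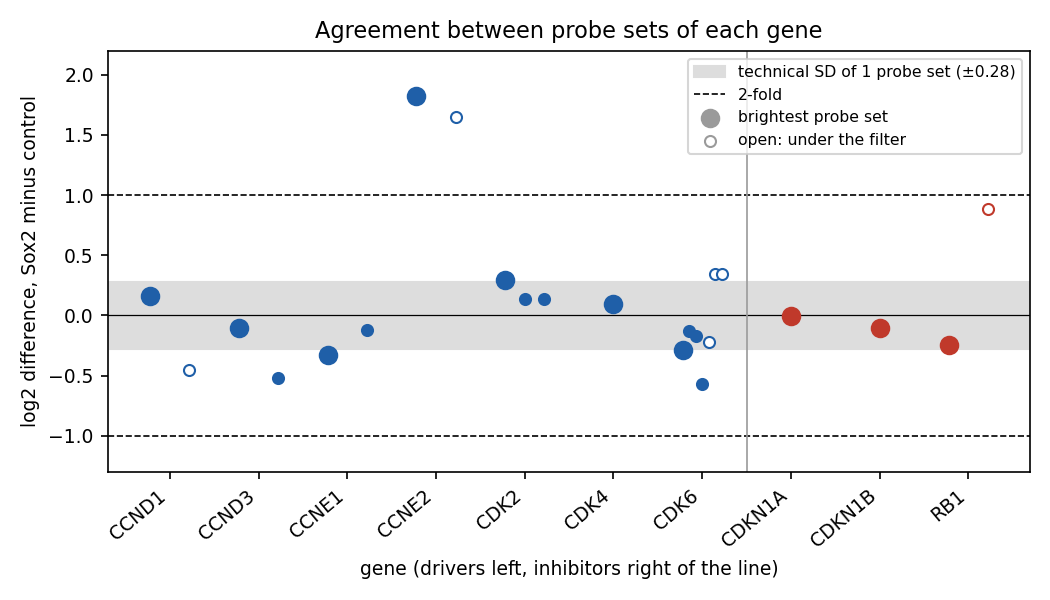
Log2 difference (Sox2 minus control) of each probe set by gene, with the brightest as a large point, open points for probe sets under the median intensity, a grey band of ±0.28 for the technical SD and dashed lines at 2-fold. The CCNE2 points stand at 1.82 and 1.65, while CCND1, CDK6 and RB1 have points on both sides of 0.

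In all, probe sets of 4 of the 7 members with several lay on 1 side of 0: CCND3 and CCNE1 below, CCNE2 and CDK2 above. CCND1, CDK6 and RB1 were split. Over all genes with exactly 2 probe sets, both lay on 1 side in 50.8%, close to an even split. With only probe sets past the filter it was 52.5%. These shares are no background for CDK2 and CDK6, which have 3 and 7 probe sets. A single probe set's log2 difference had a robust technical SD of 0.28, taken from 3471 genes with 2 probe sets past the median intensity. Of the 17 member probe sets past the filter, 11 (64.7%) differed by less than that, against 65.5% of all 22938. Under the filter, where the spread is wider, it was 1 of 6, against 53.6% of all. This SD comes from gaps between probe sets of 1 gene, which may read different stretches, and leaves out variation between cultures. The robust SD of the differences over all genes past the filter was 0.2835, against 0.2769 for this technical SD. The spread between genes was thus hardly wider than that between probe sets of 1 gene. A direction given here for a gene is therefore that of its probe sets, and is not shown to be the gene's own.

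Counted by size, 1 of the 10 members, CCNE2, was at least 2-fold higher in the Sox2-labelled array and 0 were at least 2-fold lower, all 10 having passed the filter through at least 1 array. The background was 2.69% of 14253 genes past the filter in either direction and 2.05% upward. At a threshold of 1.5-fold the count was still 1 of 10 members, against 10.2% of all genes, a share near the background. Among single probe sets past the filter, 1 of 17 of the members' differed by at least 2-fold, against 2.49% of 22938. With no filter it was 2 of 23, both of CCNE2, against 3.29% of 41091. The single call is lost when the filter uses the mean of both arrays (0 members). It is also lost when probe sets ending in _s_at or _x_at, which may match several transcripts, are left out, since the remaining CCNE2 probe set is under the filter.

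**Figure D3:**
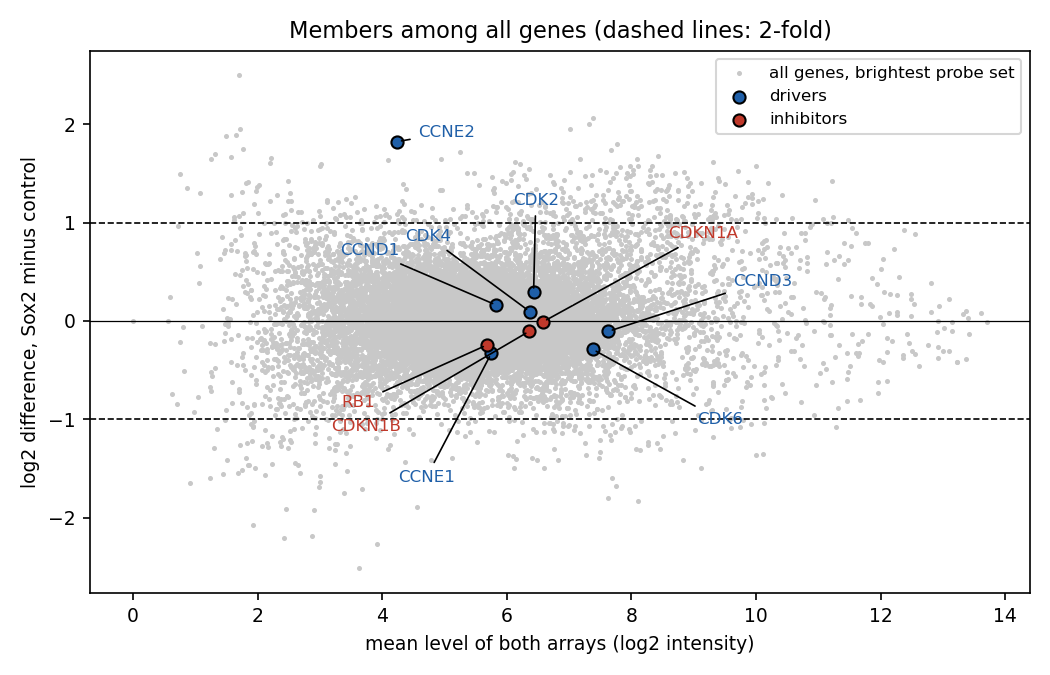
Log2 difference (Sox2 minus control) against the mean log2 intensity for the brightest probe set of every gene (grey), with the 7 drivers in blue and the 3 inhibitors in red. CCNE2 stands at 1.82, and the other 9 members lie between -0.33 and 0.29, inside the 2-fold lines.

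Drivers of S phase entry were then set against its inhibitors. By the brightest probe set of each gene, the 7 drivers had a median log2 difference of 0.09, with 4 above and 3 below 0, and the 3 inhibitors a median of -0.10, with all 3 below. The median over all genes past the filter was -0.0032. The gap of 0.20 between drivers and inhibitors is smaller than the technical SD of 0.28 of 1 probe set. That SD is not the spread of a gap between 2 medians, so the gap was not tested by it. The inhibitors' values, from -0.24 to -0.01, lie within the drivers' range of -0.33 to 1.82, so the groups overlap.

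Without CCNE2 the gap was 0.10 and the drivers' median -0.0063, on the other side of 0. The sign of the gap also depended on the probe sets. It was -0.09 when all probe sets of a gene were averaged and -0.32 with the probe set of largest difference. It was -0.59 without _s_at and _x_at probe sets, where CDK4 and CDKN1A have none left and RB1 is read by its dim probe set. RNA from a whole culture also cannot tell a larger share of cells near S phase from more RNA per cell.

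Other genes of the pathway, from lists made with earlier results of these arrays known, are described beside the members. Of 16 further G1/S drivers past the filter, 0 were at least 2-fold apart, 13 lay above 0 and 3 below, with a median log2 difference of 0.25 and a range from -0.39 to 0.91. Of all genes past the filter, 7064 of 14253 (49.6%) lay above 0. SKP2 and CCND2 passed only through the Sox2-labelled array, and of the 14 that passed in both arrays 11 lay above 0. The largest difference was that of CUL1, the scaffold of the SCF ubiquitin ligase that degrades CDKN1B, at 415 against 220 (0.91). Its second probe set read 63.4 and 60.5 (0.07). CDK7, the kinase that activates other CDKs, read 110.3 and 66.4 (0.73), and TFDP2, a dimer partner of E2F, 72.9 and 44.1 (0.72). CDK7 has 1 probe set and TFDP2 has 4, of which only the brightest is given. The lowest were the CDK-binding proteins CKS1B, at 1464 against 1913 (-0.39), and CKS2, at 2379 against 2816 (-0.24). The list's median stayed above 0 under each alternative tried, from 0.12 without _s_at and _x_at probe sets to 0.43 with the probe set of largest difference. These alternatives rework the same 2 arrays and so say nothing of other cultures. Scaling on the spike-ins, which lifts all genes by 0.75, gave 0.999. Longer genes tended to read higher in the Sox2-labelled array, with a median genomic length of 67061 bases for genes at least 2-fold higher, against 24437 for all genes past the filter. With the trend of the differences with length removed, this list's median was 0.25, and CCNE2, at 16470 bases, differed by 1.84. The part of gene length in these differences was not tested.

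Among 8 further inhibitors past the filter, 0 were 2-fold apart, 4 lay above and 4 below 0, and the median was -0.04. CDKN2D, an inhibitor of CDK4 and CDK6, differed most and by both probe sets, at 41.8 against 64.3 (-0.62) and 31.8 against 45.9 (-0.53). Of its family, CDKN2B read 27.2 and 38.5 (-0.50) and CDKN2A 65.7 and 79.9 (-0.28). CDKN2B has 2 probe sets and CDKN2A has 3, and only the brightest of each is given. CDKN2B and the second CDKN2D probe set passed the filter only through the control, where they are high. All of these differences were under 2-fold.

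Genes downstream lay on both sides of 0. Of 9 E2F target genes of S phase past the filter, 1 was at least 2-fold higher, 0 lower and 8 under 2-fold. The share at least 2-fold higher among all genes past the filter was 2.05%. In the list, 4 lay above and 5 below 0, with a median of -0.03. CDC6 passed only through the Sox2-labelled array and FEN1 only through the control. Of the 7 that passed in both arrays, 3 lay above and 4 below 0. The list has 17 genes with a probe set, and PCNA (6.56 and 7.15) and RRM2 (9.77 and 10.87) were among those under the filter. The gene at least 2-fold higher was CHEK1, a checkpoint kinase, at 74.7 against 37.0 (1.01). Its other 3 probe sets differed by -0.08, -0.31 and -0.76, opposite to the brightest. TK1, thymidine kinase, read 51.8 and 88.2 (-0.77), the lowest of the list, by the brightest of its 2 probe sets, the only one given.

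Of 11 genes of G2 and mitosis past the filter, 0 were 2-fold apart, 4 lay above and 7 below 0, and the median was -0.06. CCNB1, the mitotic cyclin, was just under 2-fold at 50.03 against 25.32 (0.98), having passed only through the Sox2-labelled array, and its other probe set, under the filter, read 4.56 and 4.21 (0.12). Of 12 p53 target genes beside CDKN1A past the filter, 0 were 2-fold apart, 3 lay above and 9 below 0, with a median of -0.06. PPM1D passed only through the control, and of the 11 that passed in both arrays 3 lay above and 8 below 0. PHLDA3, an inhibitor of AKT, differed most at 126 against 72.6 (0.80), and its other probe set read 35.5 and 35.8 (-0.01).

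**Figure D4:**
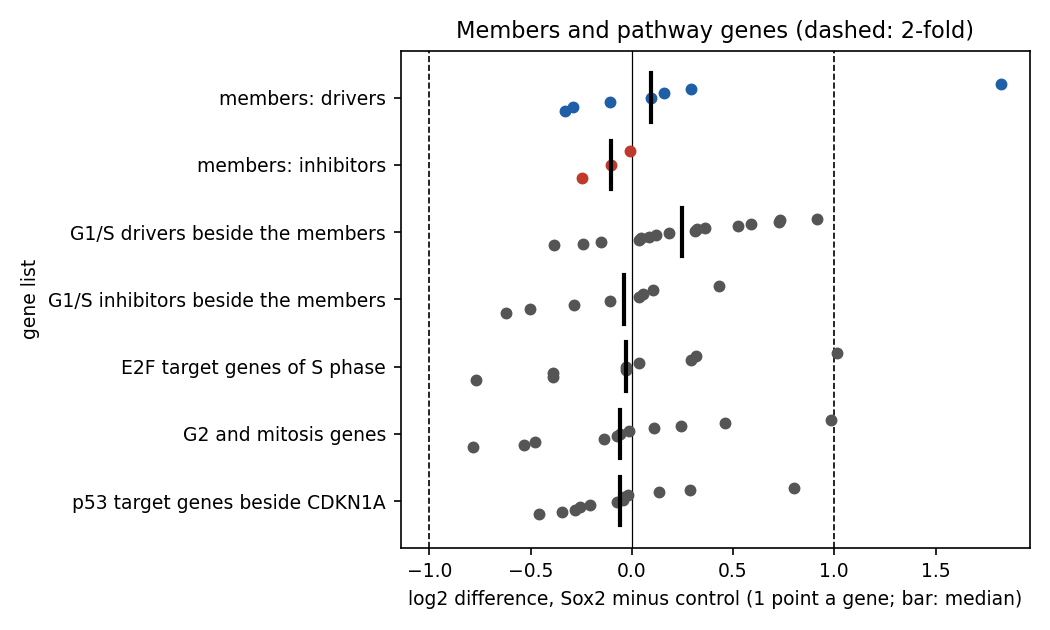
Log2 difference (Sox2 minus control) of each gene's brightest probe set, 1 point a gene, for the members and the 5 pathway lists past the filter, with a bar at each median and dashed lines at 2-fold. Medians are 0.09 for the 7 drivers, -0.10 for the 3 inhibitors and 0.25 for the 16 further drivers, and between -0.06 and -0.03 for the other lists.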

How the data were processed

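RNA of 2 cultures was read on 2 arrays of 54675 probe sets. The authors deposited intensity values per probe set on a linear scale. RMA is the only tool named, per the submitters' processing notes, and no version, no settings and no step that made the values linear were given in the sources used here. RMA usually gives log2 values with a shared distribution, but these columns are linear and their sorted values lie as much as 1585 apart. The final processing step is therefore unknown, and the arrays may not share 1 scale. The medians were 34.25 (Sox2) and 34.26 (control).

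Values were taken to log2 without further scaling. Probe sets with 1 listed gene were used, with symbols updated through RefSeq (GRCh38.p14) for 19735 of 19775 genes. The gene value was that of the probe set with the highest mean log2 level. The filter kept genes whose higher value reached 34.25, the median of all values. Genes were counted at 2-fold, with no p-value. Levels were grouped in 10 equal deciles of all single-gene probe sets.

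The members and lists were chosen with earlier results of these data known. Named from each list were members at 2-fold, or the 1 with the largest difference; CDK7, TFDP2, CKS1B, CKS2, CDKN2A, CDKN2B and TK1 were added after their values were seen. Counting was tested on simulated data with no filter and with a spread of 0.28 at every level. In the arrays the robust SD was wider for dim probe sets, at 0.63 in the lowest decile, which that test does not cover. Lowess used a span of 0.3. Python 3.11.15, numpy 2.4.6, pandas 2.3.3, statsmodels 0.14.6 and matplotlib 3.10.9 were used.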

Additional observations from a re-analysis of the deposited data

How the results depend on the processing

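A value was taken as moved when it shifted by more than the technical SD of 0.28, and a count when it shifted by over 1.5 times. Median centring, lowess centring, quantile normalization and removal of the length trend moved no count of members or probe sets and no median of drivers or inhibitors. The count of members at least 2-fold apart (1) was 0 without _s_at and _x_at probe sets, 0 with the filter on the mean of both arrays and 0 with the filter at the 75th percentile. The count of probe sets (1) was 0 under both of these filters and 2 with no filter. Scaling on the spike-ins shifted all genes by 0.75. It gave 2 of the 10 members, CCNE2 and CDK2, against 20.2% of all genes past the filter, a share near the background. The count of probe sets under this scaling was 2, and the medians were 0.84 for drivers and 0.65 for inhibitors. The drivers' median was -0.33 with the probe set of largest difference and -0.20 without _s_at and _x_at probe sets, where the inhibitors' was 0.39. Drivers minus inhibitors was -0.090 with averaged probe sets, -0.32 with the largest difference and -0.59 without _s_at and _x_at probe sets. It was 0.15 without RB1 and 0.10 without CCNE2, where the drivers' median was -0.0063, below 0. With averaged probe sets that median was -0.099. The difference of CCNE2 lay between 1.65 and 2.57 in the alternatives. The median of the further inhibitors changed sign in 5 of 11 alternatives. No paired analysis was possible because each group has 1 array. Arrays give no depth, and the number of arrays limits the precision.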
